A study of Mus musculus with 4 samples.

Results

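The genes described here are 32 genes listed for fibroblasts and their matrix. They encode collagens and other matrix proteins, the enzymes that crosslink and cut them, contractile proteins, and mesenchymal receptors and transcription factors. Among the probe sets annotated to a gene alone, the one with the highest mean of all 4 arrays stood for it. This gave 31 of the 32 genes, out of 18193 genes in all; Fbn1 was not analysed here. The first array carried a clone of induced pluripotent stem cells (the iPSC clone), which had been reprogrammed from mouse tail-tip fibroblasts with adenoviral vectors. The other 3 carried embryonic stem cell lines (NT-ESC lines 1, 2 and 3), each a subclone from cloned blastocysts made by nuclear transfer from that clone. Clone and lines alike were grown in 15% serum with LIF on irradiated embryonic fibroblasts, the feeder cells, and were plated for 45 minutes before RNA extraction so that the feeders would attach and be left behind. The labels give no strain, genotype or age, and no line had a second array.

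Fibroblasts build the fibrillar matrix of connective tissue. They secrete procollagen chains that assemble into fibrils, proteins that attach or space those fibrils, and lysyl oxidases that crosslink them, and when activated they also make smooth muscle type actin filaments. Pluripotent stem cells in culture sit on such cells, so that fibroblast transcripts in a stem cell sample can come from feeders that stayed with the colonies; stem cells also transcribe some of these genes themselves, vimentin and fibronectin among them.

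Levels below are log2 intensities with the mean of each array set to an assumed 7, because the deposited values are relative to the array mean. That these values compare log2 intensities, and not raw ones, is inferred, and all levels, log2 differences and folds rest on it. Every log2 difference also scales with the assumed mean. Where 4 values follow each other, they are in the order clone, line 1, line 2 and line 3. Over all probe sets the median level was 6.83, and 26 of the 31 genes had a mean at or above it. All 4 arrays carried the stem cell transcripts. Pou5f1 stood at 12.20 to 12.25, Sox2 at 12.40 to 12.62 and Nanog at 12.04 to 12.28. In whole-sample RNA, fewer cells of a type and less RNA per cell cannot be told apart.

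Upstream sequence is shown for 3 genes on which the description below turns, a pair of collagen genes that stood highest in NT-ESC line 2 and the smooth muscle actin gene that stood lowest in NT-ESC line 3. The RefSeq promoter table (GRCm38.p6) held 18 of the 32 genes. Each sequence is the 250 bases before the annotated start, read 5′ to 3′ on the gene's strand. Capitals mark CCAAT and TATAAA on either strand, CANNTG (the E-box, to which bHLH proteins such as the Twist factors bind), and the CArG box, the element of serum response factor, with 1 core letter other than A or T. The Col3a1 sequence lies at chr1:45311288-45311537 on the plus strand, that of Col1a2 at chr6:4505368-4505617 on the plus strand, and that of Acta2 at chr19:34255374-34255623 on the minus strand.
Col3a1: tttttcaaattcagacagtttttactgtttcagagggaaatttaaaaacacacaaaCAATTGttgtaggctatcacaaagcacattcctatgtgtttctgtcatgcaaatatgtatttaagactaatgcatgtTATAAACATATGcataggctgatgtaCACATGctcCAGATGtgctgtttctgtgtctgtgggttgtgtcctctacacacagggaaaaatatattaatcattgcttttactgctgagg
Col1a2: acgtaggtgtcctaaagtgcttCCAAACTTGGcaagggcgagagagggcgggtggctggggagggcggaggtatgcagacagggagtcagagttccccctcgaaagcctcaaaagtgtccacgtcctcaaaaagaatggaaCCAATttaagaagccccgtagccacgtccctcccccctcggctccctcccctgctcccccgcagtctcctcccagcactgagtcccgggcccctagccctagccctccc
Acta2: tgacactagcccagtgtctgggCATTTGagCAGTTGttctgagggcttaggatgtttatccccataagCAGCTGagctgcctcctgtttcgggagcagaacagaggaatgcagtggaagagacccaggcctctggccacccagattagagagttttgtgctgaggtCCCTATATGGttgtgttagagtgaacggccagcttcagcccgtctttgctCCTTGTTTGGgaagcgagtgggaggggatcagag

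The Col3a1 window held 4 E-boxes and 1 TATAAA, and its TATAAA and the E-box after it lie side by side. That of Col1a2 held 1 CCAAT and 1 imperfect CArG box, and that of Acta2 held 3 E-boxes and 2 imperfect CArG boxes. Of 32841 promoter windows of the same length, 66.2% held CANNTG, 33.9% CCAAT, 12.4% TATAAA and 7.24% an imperfect CArG box. A full CArG box, with only A and T in the core, was in 1.47% of windows and in none of those of the 18 genes. These matches describe the letters only.

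Between the iPSC clone and its NT-ESC lines no fibroblast gene passed the test (limma over all 18193 genes, smallest Benjamini-Hochberg adjusted p of a member 0.856; 0 genes called, 0% of all). At an unadjusted p under 0.05 none of the 31 was called in either direction, against 3.46% of all genes higher and 2.07% lower. Of the 31 genes, 19 had a higher mean in the lines and 12 a lower one, and the differences ran from -0.23 for Fap to 0.20 for Col3a1. The median difference of the 31 was 0.0219, beside -0.00311 over all genes, and 0.0848 without line 3. With 1 clone array the spread is that of the 3 lines alone, which are not known to be separate derivations.

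The order of the 4 arrays was uneven. NT-ESC line 2 was the highest array for 17 of the 31 genes, where it was highest for 23.6% of all genes. The genes were chosen with earlier results of these data known, so these counts are a description and not a test. Line 1 was highest for 5 members (20.9% of all genes), line 3 for 4 (25.7%) and the clone for 5 (26.7%). Line 2 was the lowest array for 3 members (20.2% of all genes), line 3 for 11 (28.8%), line 1 for 8 (23.4%) and the clone for 8 (24.7%). The median difference of the members in line 2 against the mean of the other 3 arrays was 0.126, beside 0.0092 over all genes; without line 3 among the others it was 0.0832. For the clone, line 1 and line 3 it was -0.0219, -0.0326 and -0.0493.

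**Figure D1:**
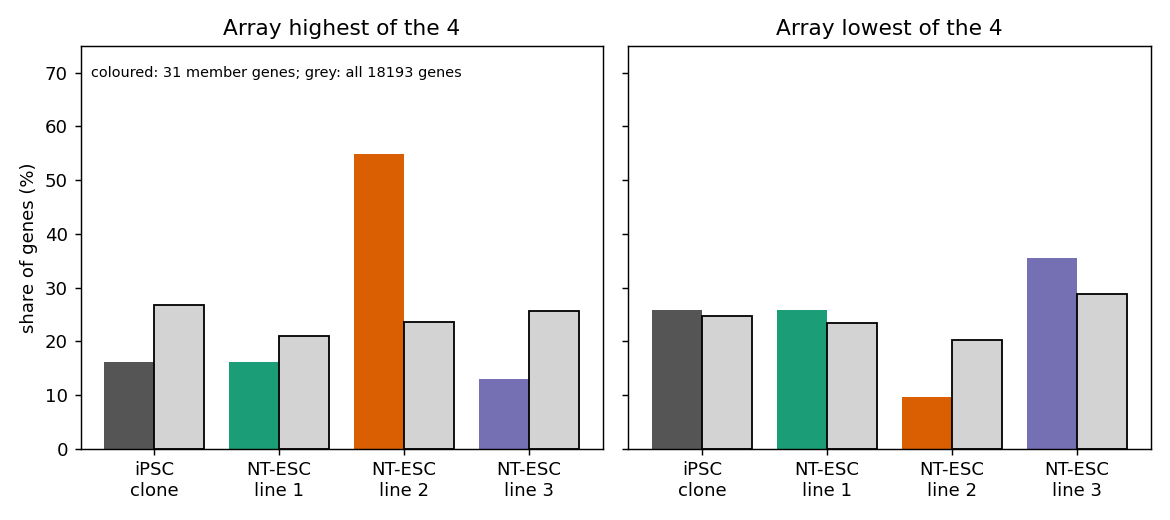
Share of genes (vertical axis, percent) for which each array was the highest (left) or the lowest (right) of the 4. Coloured bars stand for the 31 fibroblast genes, chosen with earlier results of these data known, and grey bars for all 18193 genes. Line 2 was highest for 17 of the 31, where it was highest for 23.6% of all genes.

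In the same kind of fit, with 1 array against the rest, 0 genes were called for line 2 by limma (smallest Benjamini-Hochberg adjusted p = 1.00), so no single fibroblast gene is shown to be higher there. At an unadjusted p under 0.05, 4 of the 31 members were higher in line 2, against 1.25% of all genes, and 0 were lower, against 1.08%. These 4 are Col1a1, Col1a2, Col3a1 and Postn. Line 2 stood at least 0.1 log2 above the next highest array for 7 of the 31, against 5.29% of all genes. Besides those 4 they were Col5a2, Col6a1 and Sparc.

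**Figure D2:**
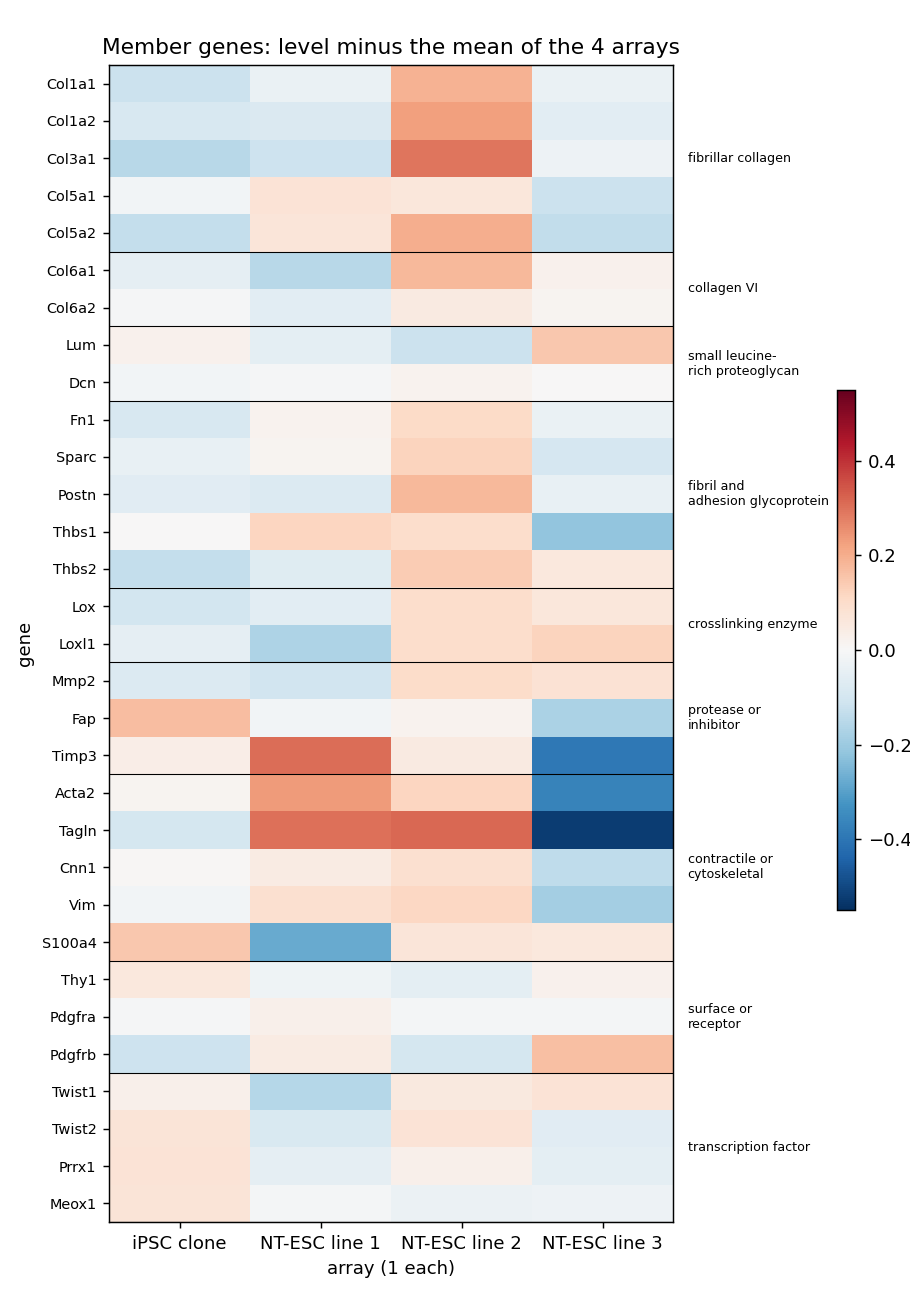
Level of each of the 31 fibroblast genes (rows, grouped by role) on each array (columns), as the log2 difference from the mean of the 4 arrays, red above and blue below. Within their own rows, Col1a1, Col1a2, Col3a1 and also Tagln are reddest in line 2, while Tagln, Acta2 and Timp3 are bluest in line 3.

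The fibrillar collagens of types I and III carried the largest gaps in line 2. Col3a1, which encodes the chain of type III collagen, stood at 9.44 in the clone against 9.48, 9.89 and 9.57 in lines 1, 2 and 3. Line 2 thus lay 0.32 above the next array, while the other 3 lay close together. Its difference from their mean was 0.39 ± 0.09 (limma SE), or 1.31-fold, and 0.26 with the mean of its probe sets, the other of which lies below the median level. Col1a2, one of the chains of type I collagen, had a level of 10.80 in the clone against 10.81, 11.11 and 10.83 in the lines. The 3 lower arrays again lay together, and line 2 differed from them by 0.30 ± 0.08 (SE), or 1.23-fold. Col1a1, the other type I chain, had a level of 9.87 in the clone against 9.95, 10.18 and 9.95 in the lines, a difference of 0.26 ± 0.09 (SE) for line 2. A second Col1a1 probe set did not share this order, with 8.71 in the clone and 9.04, 8.99 and 8.85 in the lines, so that line 1 was highest there. A second Col1a2 probe set had 9.42, 9.52, 9.65 and 9.40 in the same order of arrays, with line 2 highest.

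The chains of type V collagen, which sets the diameter of type I fibrils, did not share one order. Col5a2 had a level of 9.14 in the clone against 9.34, 9.47 and 9.13 in the lines, so that line 2 was highest and line 1 lay between. Col5a1 had a level of 9.37 in the clone against 9.46, 9.44 and 9.26 in the lines, so that lines 1 and 2 lay together and line 3 was lowest. Type VI collagen forms beaded microfilaments around cells. Its Col6a1 chain had a level of 8.49 in the clone against 8.38, 8.71 and 8.56 in the lines, and its Col6a2 chain levels of 8.88, 8.83, 8.94 and 8.90. Both were highest in line 2 and lowest in line 1, with a range of 0.33 for Col6a1 and of 0.11 for Col6a2.

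Among the glycoproteins that bind fibrils or cells, Postn, which encodes periostin, had a level of 7.46 in the clone against 7.45, 7.70 and 7.48 in the lines. Only line 2 stood apart on this probe set, by 0.24 ± 0.08 (SE) from the mean of the others. Sparc, a collagen-binding protein that stem cells and endoderm also make, had a level of 10.99 in the clone against 11.05, 11.15 and 10.94 in the lines. Fn1, fibronectin, had a level of 12.23 in the clone against 12.34, 12.43 and 12.28 in the lines, again with line 2 highest, by 0.14 ± 0.09 (SE) from the mean of the others. The thrombospondins, matrix proteins that cells bind, differed from each other in their highest and lowest arrays on the probe sets that represent them. Thbs2 had a level of 6.85 in the clone against 6.91, 7.12 and 7.04 in the lines, whereas Thbs1 had a level of 10.36 in the clone against 10.48, 10.46 and 10.14 in the lines. The further Thbs2 probe sets, below the median level, were lowest in line 3, as Thbs1 was. With the mean of its probe sets, the difference of Thbs2 in line 3 turned from 0.077 to -0.097.

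Of the small proteoglycans that coat collagen fibrils, Dcn, decorin, had a level of 7.28 in the clone against 7.29, 7.31 and 7.30 in the lines. Its arrays had the order of Col3a1 and Col1a2, with line 2 highest and the clone lowest, but over a range of only 0.0354. Lum, lumican, was below the median level of all probe sets, at 5.72 in the clone and 5.64, 5.58 and 5.84 in the lines, with line 2 lowest. The lysyl oxidases, which crosslink collagen and elastin, were higher in lines 2 and 3 than in the clone and line 1. Lox had a level of 9.37 in the clone against 9.41, 9.56 and 9.53 in the lines, and Loxl1 levels of 8.27, 8.15, 8.41 and 8.44. Mmp2, a gelatinase, had the same split, with 8.40 in the clone and 8.37, 8.58 and 8.55 in the lines. Mmp2 lies on chromosome 8, whose 932 genes had a median difference of 0.18 in line 3; the part of that shift in the Mmp2 value was not tested.

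**Figure D3:**
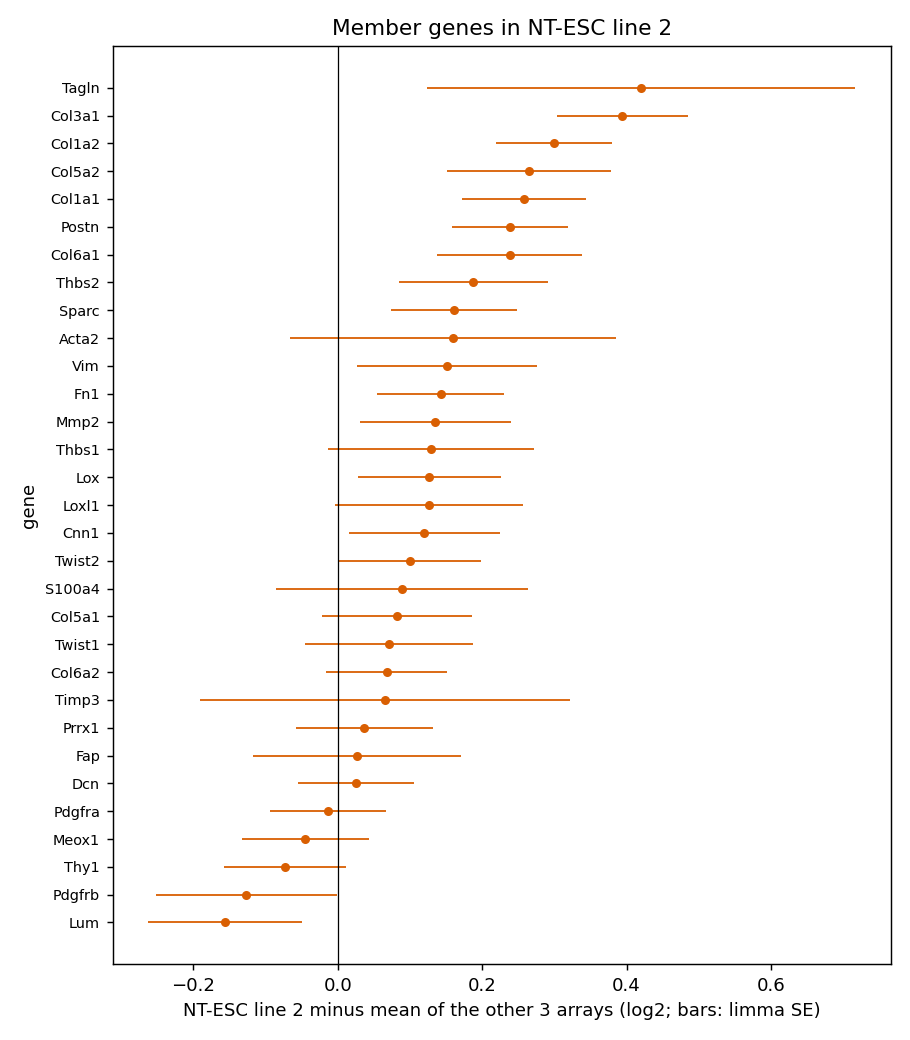
Level in NT-ESC line 2 minus the mean of the other 3 arrays (horizontal axis, log2) for the 31 genes, with limma's SE as bars. Tagln has the largest value but a wide bar, since the other 3 arrays differ; Col3a1 and Col1a2 follow at 0.39 and 0.30 with narrower bars.

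Line 3 stood at least 0.1 log2 below the next lowest array for 8 of the 31 members, against 9.97% of all genes. They were Tagln, Acta2, Cnn1, Vim, Thbs1, Timp3, Col5a1 and Fap. No member passed the test for line 3 (limma, smallest Benjamini-Hochberg adjusted p of a member 0.106), where 0.159% of all genes were called higher and 0.302% lower. At an unadjusted p under 0.05, 5 members were lower in line 3, against 5.76% of all genes, and none was higher, against 5.80%.

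Line 3 was the lowest array for 4 of the 5 contractile and cytoskeletal members, all but S100a4, where it was lowest for 28.8% of all genes. Tagln, which encodes the actin-binding protein transgelin, had a level of 9.82 in the clone against 10.22, 10.23 and 9.40 in the lines. Lines 1 and 2 were thus level with each other, the clone lay between, and line 3 lay 0.69 ± 0.16 (SE) under the mean of the others (limma, Benjamini-Hochberg adjusted p = 0.134). Acta2, smooth muscle actin, had a level of 10.18 in the clone against 10.40, 10.28 and 9.80 in the lines. Its difference in line 3 was -0.49 ± 0.10 (SE; limma, Benjamini-Hochberg adjusted p = 0.106). With the mean of all its probe sets it was -0.15, and line 3 was not lowest on the other two, which lie between 3.91 and 4.81, below the median level. Cnn1, the actin-binding calponin of smooth muscle, had a level of 7.44 in the clone against 7.47, 7.52 and 7.29 in the lines. Vim, the intermediate filament of mesenchymal cells, had a level of 12.37 in the clone against 12.47, 12.50 and 12.20 in the lines. On its further probe sets the clone and line 3 were nearly level. One had 11.67, 12.02, 11.97 and 11.66, and another 11.207, 11.602, 11.482 and 11.215. Timp3, a matrix-bound protease inhibitor, was also lowest in line 3, with 8.46 in the clone and 8.73, 8.47 and 8.03 in the lines. Its difference in line 3 was -0.52 ± 0.12 (SE; limma, Benjamini-Hochberg adjusted p = 0.132), and line 3 was lowest on all of its 4 probe sets.

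In 9 of the 31 genes, lines 1 and 2 both stood above the clone and line 3 below it, an order found in 10.2% of all genes and singled out after the values were seen. These were Tagln, Acta2, Cnn1, Vim, Thbs1, Timp3, Col5a1, Col5a2 and Sparc. The last pair also belonged to the genes with the gap in line 2. For Col5a2 the clone and line 3 were nearly level, at 9.14 and 9.13. Further probe sets at or above the median level kept this order of arrays for Col5a1. For Vim, Thbs1, Timp3 and Sparc not all of them did, and those of Acta2, below that level, did not. A second Thbs1 probe set had 9.52 in the clone and 9.62, 9.40 and 9.30 in the lines.

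**Figure D4:**
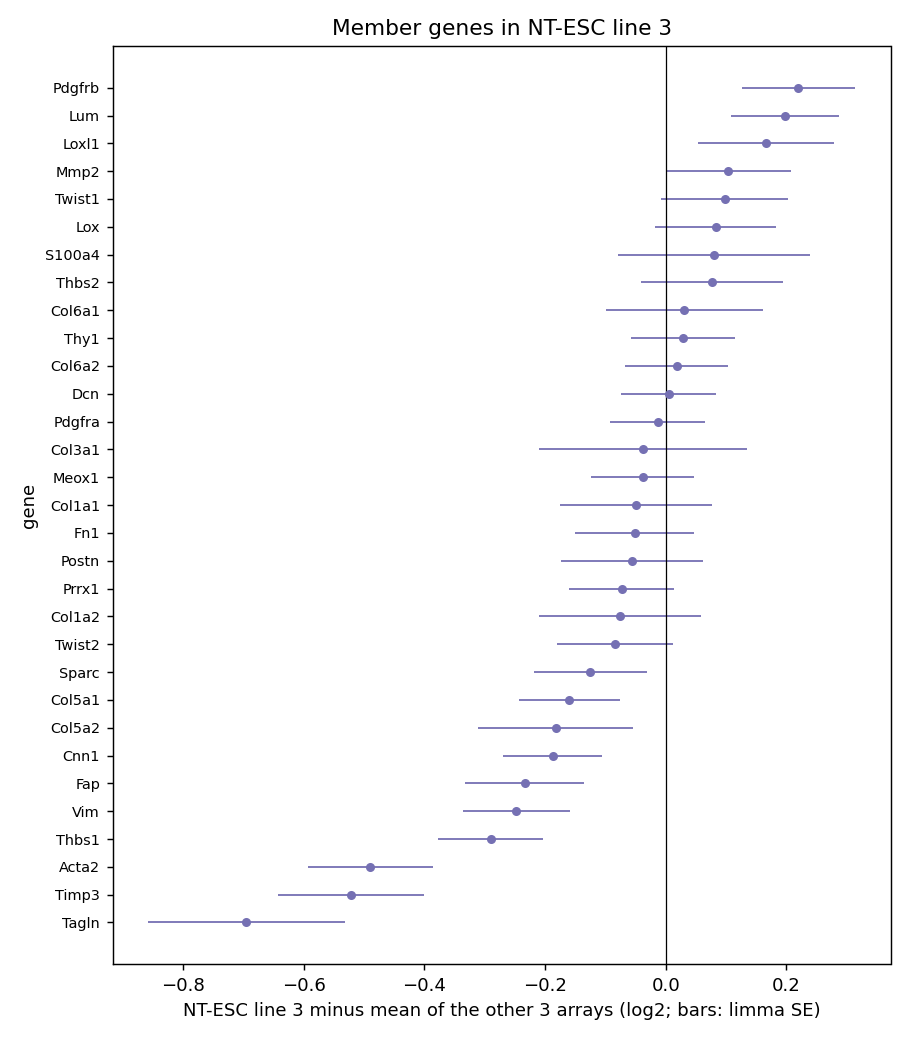
Level in NT-ESC line 3 minus the mean of the other 3 arrays (horizontal axis, log2) for the 31 genes, with limma's SE as bars. Tagln, Timp3 and Acta2 lie farthest to the left, at -0.69, -0.52 and -0.49, and Pdgfrb at 0.22 and Lum at 0.20 lie farthest to the right.

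S100a4, a calcium-binding protein of motile fibroblasts, followed neither order. It had a level of 9.24 in the clone against 8.81, 9.15 and 9.15 in the lines, so that line 1 alone was low, by 0.37 ± 0.09 (SE) from the mean of the others. It did not pass the test (limma, Benjamini-Hochberg adjusted p = 0.998), nor did any gene for line 1, where 1.39% of all genes and 2 of the 31 members, S100a4 and Twist1, were lower at an unadjusted p under 0.05. Fap, a surface protease of activated fibroblasts, was below the median level, at 5.28 in the clone and 5.09, 5.12 and 4.93 in the lines.

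Among the receptors and transcription factors that mark mesenchymal cells, Thy1, a surface glycoprotein of fibroblasts, had a level of 7.47 in the clone against 7.38, 7.35 and 7.43 in the lines, with line 2 lowest. Pdgfra, a receptor for platelet-derived growth factor, varied by 0.04 over the arrays, from 6.48 to 6.52. Pdgfrb, the other receptor of this family, had a level of 6.54 in the clone against 6.70, 6.56 and 6.82 in the lines, so that line 3 was highest. Its second probe set had 6.34, 6.61, 6.75 and 6.58, with line 2 highest, and both were below the median level.

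Twist1, a bHLH factor of mesenchyme, had a level of 5.68 in the clone against 5.50, 5.71 and 5.73 in the lines, also below the median level. Twist2, its close relative, had a level of 7.20 in the clone against 7.05, 7.21 and 7.07 in the lines. Prrx1, a homeobox factor of limb mesenchyme, had a level of 7.09 in the clone against 6.97, 7.04 and 6.96 in the lines. Another Prrx1 probe set had 6.89, 6.88, 7.25 and 6.71 and was highest in line 2. Meox1, a homeobox factor of somites, had a level of 6.97 in the clone against 6.87 to 6.89 in the lines. On the probe sets that represent these 7 receptors and factors, only Twist2 was highest in line 2, by 0.0050. The further probe sets of Pdgfrb and Prrx1 given above had line 2 highest by more than that.

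Most genes had further probe sets, 65 in all for the 31 genes. Line 2 was highest on 37 of them, against 22.3% of all probe sets that name 1 gene, and line 3 lowest on 25, against 26.9%. Among the 17 probe sets at or above the median level that did not represent their gene, line 2 was highest on 8 (19.8% of all such probe sets), line 1 on 7 (26.8%), and line 3 was lowest on 9 (25.1%). Probe sets of 1 gene share their transcripts and arrays and are not replicates.

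Other genes of the same pathways, taken from lists that leave out the 32 genes unless stated, were set beside these values. Line 2, the highest array for 23.6% of all genes, was highest for 9 of 17 measured enzymes that process collagen, with a median difference of 0.135, and for 16 of 27 further matrix glycoproteins and proteoglycans, with a median of 0.121. For 11 further collagens it was highest for 5, as was the clone (26.7% of all genes), with a median of 0.0803. For line 2, limma called none of them. The genes named from each list are up to 4 with the largest range among those with a mean at or above the median level.

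Among the processing enzymes, P4ha2, a prolyl hydroxylase subunit, had a level of 7.80 in the clone against 8.03, 8.14 and 8.38 in the lines, so that line 3 was highest. P4ha1, a related subunit, stood at 8.83, 9.05, 9.25 and 9.21, and Plod2, a lysyl hydroxylase of collagen, at 10.14, 10.28, 10.49 and 10.36. Pcolce, which speeds the removal of the procollagen tail, had a level of 10.36 in the clone against 10.49, 10.58 and 10.17 in the lines. These last 3 were highest in line 2, but only Pcolce was lowest in line 3.

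Among the glycoproteins and proteoglycans, Vcan, the large proteoglycan versican, had a level of 6.87 in the clone against 7.44, 7.19 and 6.80 in the lines, highest in line 1. Tnc, tenascin C, stood at 8.40, 8.61, 8.76 and 8.30, and Ltbp3, a latent TGF-beta binding protein, at 8.16, 8.51, 8.56 and 8.30, both highest in line 2. Mfap5, a microfibril protein, stood at 7.74, 7.49, 7.56 and 7.35, highest in the clone. Of the 4 further collagens, Col8a1 and Col16a1 were highest in line 2, and Col15a1 and Col18a1 in the clone.

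Line 2 was highest for 2 of 12 other proteases and inhibitors, where the clone was highest for 7 (26.7% of all genes). Timp1, Timp2 and Serpinf1 were highest in the clone and Mmp9 in line 1. Of 30 further mesenchymal surface and transcription factor genes, line 2 was highest for 12 (23.6% of all genes) and line 3 lowest for 14 (28.8%). Cdh2, N-cadherin, had a level of 6.96 in the clone against 7.35, 7.22 and 6.45 in the lines, and Igfbp3, a binding protein of insulin-like growth factors, levels of 7.85, 8.15, 7.77 and 7.48. Both were highest in line 1. Ccn2, the connective tissue growth factor, stood at 10.01, 10.33, 10.41 and 9.83, and Ncam1, a neural cell adhesion molecule, at 7.96, 8.22, 8.25 and 7.60, both highest in line 2. All 4 were lowest in line 3.

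For 14 further contractile genes, line 1 was highest for 8 (20.9% of all genes) and line 3 lowest for 8 (28.8%), with median differences of 0.139 in line 1 and -0.171 in line 3. Tpm1, a tropomyosin, had a level of 9.90 in the clone against 10.38, 10.11 and 9.74 in the lines, an order like that of Acta2. Myl9, a myosin light chain of smooth muscle, stood at 8.11, 7.84, 8.18 and 7.58, also lowest in line 3. Not all contractile genes were low there. Tagln2, a relative of Tagln found in many cell types, stood at 10.59, 10.62, 10.79 and 11.17, and Tpm4, a tropomyosin of nonmuscle cells that lies on chromosome 8, at 10.40, 10.65, 10.74 and 10.86, both highest in line 3.

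**Figure D5:**
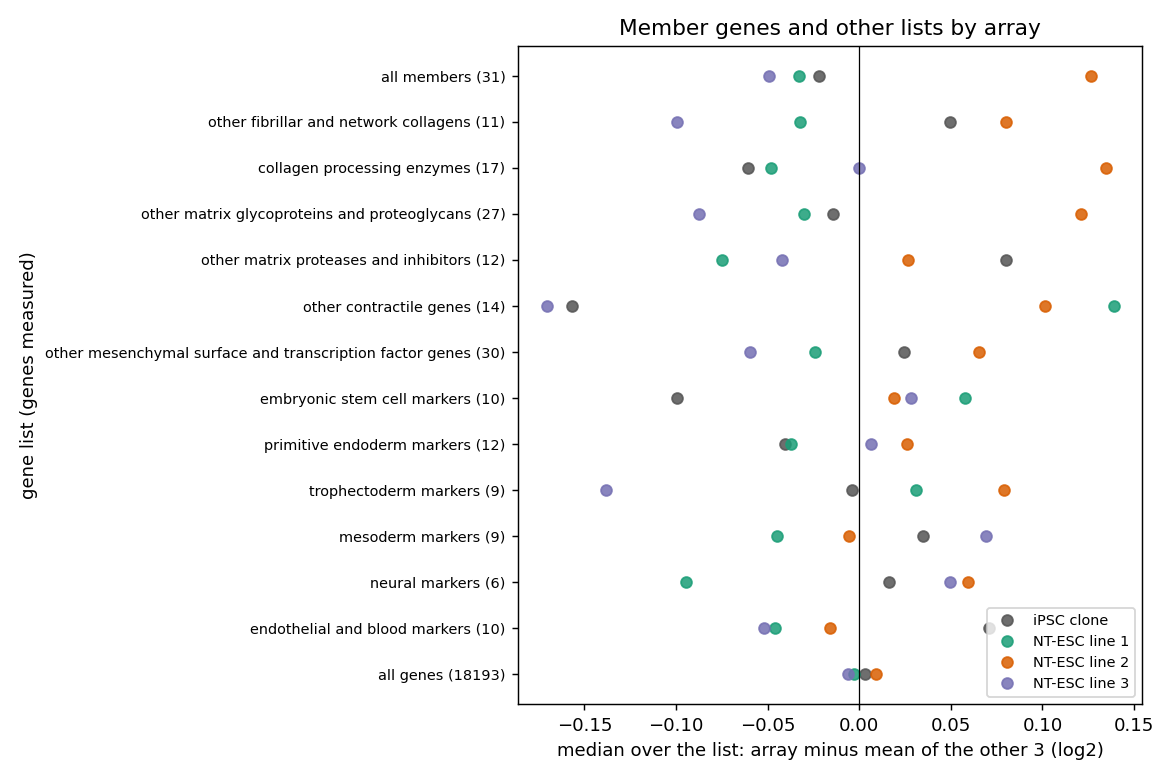
Median over each gene list (rows, with the number of genes measured) of the log2 difference between an array and the mean of the other 3, with 1 point for each array. In line 2 the fibroblast genes have 0.126, the collagen processing enzymes 0.135 and the further matrix glycoproteins 0.121, while the median over all genes is 0.0092.

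Markers of other cell types had medians in line 2 below the 0.126 of the fibroblast genes. They were 0.0259 for 12 primitive endoderm genes, which include Pdgfra, 0.0790 for 9 trophectoderm genes, -0.00581 for 9 mesoderm genes, 0.0594 for 6 neural genes, -0.0157 for 10 endothelial and blood genes and 0.0192 for 10 stem cell markers. Line 2 was highest for 2, 2, 1, 2, 2 and 0 genes of these short lists, against 23.6% of all genes. Ties are not counted, and line 2 shared the highest level of the stem cell markers Nanog and Dppa5a. The lists also differ in level, since 6, 6, 4, 3, 2 and 10 of their genes had a mean at or above the median level, against 26 of the 31 members. In line 3, where the fibroblast genes had a median of -0.0493, the same lists had 0.00665, -0.138, 0.0692, 0.0497, -0.0520 and 0.0280. Averaged over a list, the fibroblast genes ranged from 8.45 in line 3 to 8.60 in line 2, the primitive endoderm genes from 7.43 to 7.49, the trophectoderm genes from 7.40 to 7.71 and the stem cell markers from 12.10 to 12.18 over the arrays. The keratins Krt8 and Krt18 of simple epithelium were high in lines 1 and 2, as Tagln and Acta2 were. Krt8 had a level of 8.39 in the clone against 9.62, 9.35 and 8.41 in the lines, and Krt18 levels of 8.30, 9.37, 9.08 and 8.01. Other trophectoderm genes with a large range did not share this order. Tfap2c stood at 8.49, 9.25, 8.97 and 8.92, lowest in the clone, and Eomes at 7.65, 7.99, 7.83 and 8.38, highest in line 3. In line 3, limma called Cd68 of the endothelial and blood list and Col4a1 of the primitive endoderm list. The shares of all genes called there are given above, and with any other array left out no gene was called. Cd68, a macrophage protein, had a level of 8.13 in the clone against 8.18, 8.16 and 7.17 in the lines, a difference of -0.99 ± 0.08 (SE; limma, Benjamini-Hochberg adjusted p = 0.0055). Col4a1, a basement membrane collagen encoded on chromosome 8, stood at 8.41, 8.62, 8.57 and 9.33, a difference of 0.80 ± 0.10 (SE; limma, Benjamini-Hochberg adjusted p = 0.034). Lama1, a laminin chain of basement membrane, was lowest in line 3, at 8.94, 9.58, 9.14 and 8.41, with a difference of -0.81 ± 0.21 (SE) that did not pass (limma, Benjamini-Hochberg adjusted p = 0.186). Also of the endoderm list, Dab2 stood at 7.32, 7.34, 7.48 and 7.68, and Col4a2, on chromosome 8, at 7.99, 7.90, 8.05 and 8.20. Both were highest in line 3. Csf1r, of the endothelial and blood list, stood at 8.01, 7.69, 7.71 and 7.69, highest in the clone. The part of these marker differences in the fibroblast values was not tested.

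The signal of 3′ over 5′ probe sets in 4 control genes, a measure of RNA length, was largest in line 2 for each of them. For Actb the log2 gap was 0.421 in line 2 against 0.218 to 0.293 on the other arrays, and for Tfrc 1.3405 against 1.2195 to 1.3402. The part of this gap in the values of line 2 was not tested.

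Outside the fibroblast list, the 5 genes with the largest gap in line 2 at or above the median level were Slit2, Ldhb, Nfatc4, Malat1 and Aire. Slit2, a secreted guidance protein, had a level of 6.82 in the clone against 7.11, 8.02 and 6.90 in the lines, and Ldhb, a subunit of lactate dehydrogenase, levels of 10.77, 10.74, 11.23 and 10.60. Col3a1, with a gap of 0.32, was the member with the largest one. The range over the 4 arrays was 0.265 for the median member, from 0.0354 for Dcn to 0.836 for Tagln, beside 0.185 for the median of all genes.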

How the data were processed

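RNA of 4 samples was labelled with biotin and hybridised to Affymetrix arrays, per the labels' protocols. How they were summarized and normalized is not given in the sources used here. What the authors deposited are log2 values relative to an array's own mean, since the ratios (2 to the power of the value) average 1 throughout. The ratios ran from 0.422 to 2.035 and were taken as ratios of log2 intensities, which the sources used here do not state. Each ratio was multiplied by 7, an assumed mean log2 intensity, to give a level. Of 45101 probe sets, 34945 named 1 gene and 34741 matched RefSeq (GRCm38.p6), which gave symbols and chromosomes. Each gene took its brightest probe set, chosen on the mean of all 4 arrays.

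limma 3.58.1 (R 4.3.3; two-sided test of lmFit and eBayes, called at a Benjamini-Hochberg adjusted p below 0.05) compared the lines with the clone, and each array with the other 3, over all 18193 genes; the lone array was assumed to vary like the others. The code was tested on simulated data. p-values measure the spread between these arrays, whose number limits the precision. The members, lists and tests were chosen with earlier results of these data known. All measured members are named. Of each further list, up to 4 genes with the largest range qualified for naming, among those with a mean at or above the median level. The 5 genes with the largest gap in line 2 and stem cell and RNA controls are named besides.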

Additional observations from a re-analysis of the deposited data

How the results depend on the processing

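The number of genes called between the lines and the clone, and for line 1, line 2 or the clone against the rest, was 0 by limma under every alternative tried; at an unadjusted p under 0.05 it was 1006, 504, 423 and 1006 genes. The clone against the rest is the lines against the clone with the sign turned, so the first and last counts are of the same genes. Line 2 was the highest array for 17 to 21 members under every alternative, but these counts are not alike. Those with an array left out set fewer arrays against each other, and the genes at or above the median level hold 26 members. The mean of all probe sets gave 3 members highest in line 1 and 168 genes called for line 3, and the genes at or above the median level gave 1 member highest in line 3. For line 3, quantile normalization gave 127 calls, eBayes with a trend 153, and the values as deposited, an alternative chosen after seeing the data, 15; leaving out any other array gave 0 calls, from 0 to 0. On the deposited scale, which is not a log2 intensity, the member median for line 2 was 0.0183. When each array was left out in turn, the member median was 0.0832 to 0.130 for line 2 and -0.00598 to 0.0848 for the lines against the clone. The clone against the rest, the same contrast with the sign turned, had -0.0848 to 0.00598. Members highest were 6 to 11 for line 1 and 4 to 13 for line 3, where the highest value came without line 2. Fewer arrays raise such counts by design, and no share of all genes is given for them. An assumed mean of 6, or of 7.86 (the brightest probe set is then at 16), rescaled every difference and changed no call. Of 31 members, 2 differences in line 2 turned sign with the mean of probe sets, Pdgfra and Pdgfrb, and 3 without line 3, Acta2, Fap and Timp3. Without line 1, 1 turned, that of S100a4. In line 3, 5 turned with the mean of probe sets, 3 without line 1 and 1 without the clone, and those of Col1a1, Col1a2, Col3a1 and Postn turned without line 2. No paired analysis was possible because all the lines came from the same clone, which had only 1 array.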
